A study of Mus musculus with 12 samples.

Results

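Glucocorticoid hormone acts in the brain through a pair of nuclear receptors, the glucocorticoid receptor (Nr3c1) and the mineralocorticoid receptor (Nr3c2), both of which are abundant in hippocampal neurons. The amount of active hormone inside a cell also depends on Hsd11b1, which regenerates corticosterone from its inactive form. The occupied receptor enters the nucleus and raises the transcription of a well-known set of genes, among them Fkbp5, Sgk1, Tsc22d3, Zbtb16, Errfi1, Klf9 and Cdkn1a. These 10 genes were followed in hippocampal RNA of 12 mice, out of 29608 genes named on the array. They were taken as every non-control probe that carries one of the 10 symbols, which gave 13 probes of 60 bases in 31 spots; Hsd11b1 and a probe of Cdkn1a have 10 spots each, Cdkn1a has 3 probes and Nr3c1 has 2.

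The 12 mice were adult females, about 12 weeks old and in diestrus, of 3 phenotypes with 4 mice each. MRL/lpr mice are lupus-prone and carry the lpr loss-of-function mutation of Fas on the MRL background. Fn14ko mice are MRL/lpr littermates that also lack Fn14 (Tnfrsf12a), the receptor of the cytokine TWEAK. MRL/+ (MRL/MpJ) mice share the MRL background without the lpr mutation and came from another breeder than the other 2 phenotypes, so breeder and genotype cannot be told apart in comparisons with MRL/+. Total RNA was labeled with Cy3 (odd replicate numbers) or Cy5 (even replicate numbers), and each of 6 arrays, read in both colours, carried 2 mice that shared a phenotype. Both arrays of a phenotype lay on 1 slide, so that slide and phenotype cannot be told apart. The labels give hippocampus as the tissue, while the free-text description of each sample names cortex.

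Levels are given as multiples of the channel median, the median net signal over the 10877 spots that were measurable in all 12 samples. A spot counted as measurable, or valid, when its foreground was at least 2 times the local background and it carried no outlier flag. The array of MRL/lpr replicates 3 and 4 was weak, with a median foreground of 1.93 and 1.73 times background and channel medians of 170 and 74.7, against 4.42 to 12.6 times and 684 to 4545 in the other 10 samples. The 2 MRL/+ samples in Cy5 had a median negative-control foreground of 208 and 211, against 33.2 to 90.6 in the other 10 samples. The Fn14 probe read 0.151 to 0.189 in the 4 mice labelled Fn14ko, well above background in all 4, and 0.241 to 0.629 in the other 8. MRL/lpr replicates 3 and 4, on the weak array, gave the lowest of these (0.241 and 0.247) and were not well above background. Whether this probe lies inside the deleted part is not stated in the sources used here. Of the 10 genes, 6 (Hsd11b1, Fkbp5, Sgk1, Tsc22d3, Zbtb16 and Klf9) had at least 1 valid spot in all 12 samples and were tested with the 8864 genes of that kind. The other 4 (Nr3c1, Nr3c2, Errfi1 and Cdkn1a) had valid spots in all 10 samples outside the weak array but not in all 12, and their 12-sample values come from a fit of all 29608 genes with no filter on dim spots.

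**Figure D1:**
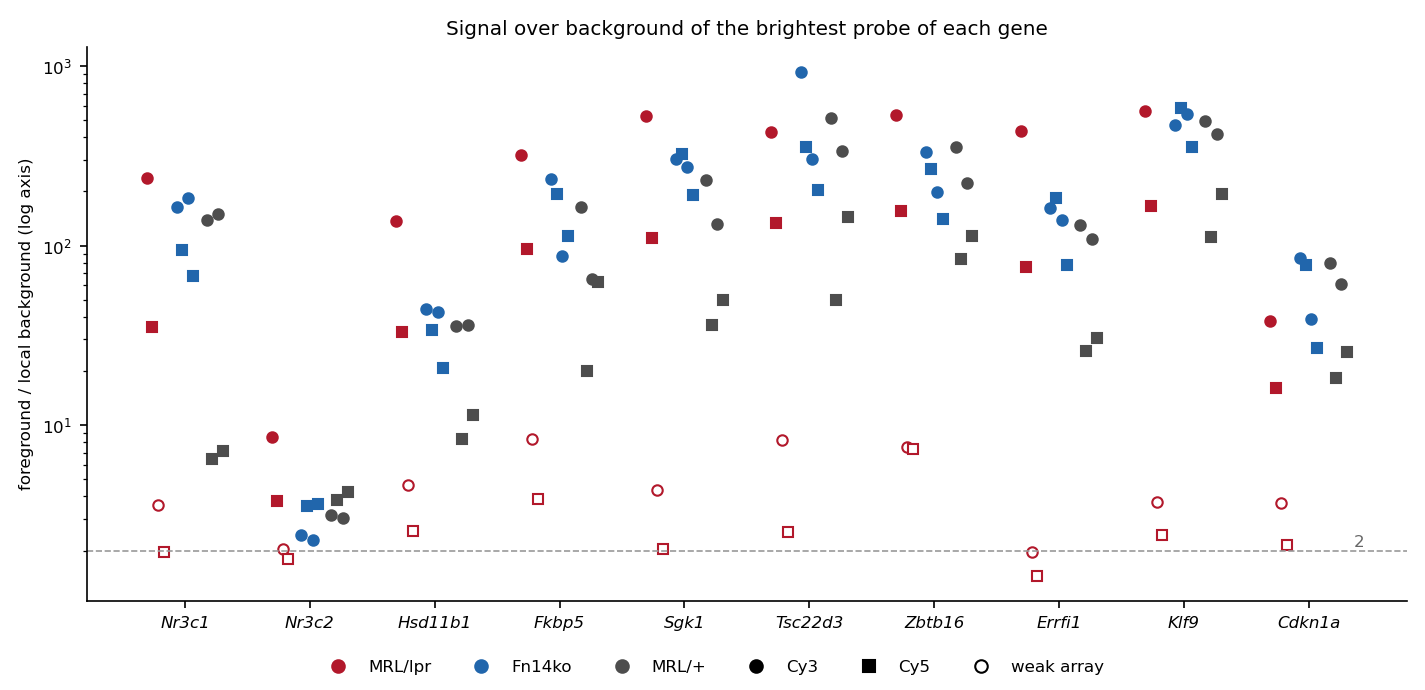
Foreground over local background (log axis) of the brightest probe of each of the 10 genes in 12 samples, coloured by phenotype, with circles for Cy3, squares for Cy5 and open symbols for the weak array; the dashed line marks 2, the minimum for a valid spot. The open symbols lie below all filled ones for every gene, and Nr3c2 is near background in all samples.

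The receptor binds DNA as a dimer, at a pair of inverted hexamers separated by 3 bases. The hexamer AGAACA, or its reverse complement TGTTCT, and the full palindrome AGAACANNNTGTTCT were searched on both strands in the 250 bases before each transcription start that RefSeq lists (build GRCm38.p6). Of the 10 genes, 8 were matched in that table, with 17 promoters, while Nr3c1 and Zbtb16 were not examined. The hexamer occurred in 4 of the 17, in 3 of 6 Sgk1 promoters and 1 of 3 Tsc22d3 promoters, and in 16.1% of all 32851 promoters. The full palindrome occurred in 3 of the 32851 promoters, 0.00913%, and 1 of these belongs to Sgk1, where it ends 174 bases before the start at chr10:21993640-21993889 (plus strand). That promoter is shown because it is the only member window with the full palindrome, beside the Tsc22d3 window with a single hexamer (chrX:140600523-140600772, minus strand) and the promoter of Hsd11b1 (chr1:193242361-193242610, minus strand), the gene that passed the test below, in which no hexamer was found. Capitals mark the hexamers; each sequence runs 5′ to 3′ on the strand of its gene.
Sgk1: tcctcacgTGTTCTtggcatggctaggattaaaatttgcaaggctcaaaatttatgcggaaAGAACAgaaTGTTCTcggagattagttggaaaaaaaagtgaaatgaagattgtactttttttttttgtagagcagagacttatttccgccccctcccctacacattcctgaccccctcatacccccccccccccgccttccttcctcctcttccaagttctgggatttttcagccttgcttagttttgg
Tsc22d3: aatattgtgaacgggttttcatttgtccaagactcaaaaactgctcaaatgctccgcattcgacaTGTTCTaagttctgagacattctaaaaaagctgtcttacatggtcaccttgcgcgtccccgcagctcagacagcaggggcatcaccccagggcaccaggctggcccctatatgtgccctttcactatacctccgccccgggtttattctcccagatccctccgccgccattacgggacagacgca
Hsd11b1: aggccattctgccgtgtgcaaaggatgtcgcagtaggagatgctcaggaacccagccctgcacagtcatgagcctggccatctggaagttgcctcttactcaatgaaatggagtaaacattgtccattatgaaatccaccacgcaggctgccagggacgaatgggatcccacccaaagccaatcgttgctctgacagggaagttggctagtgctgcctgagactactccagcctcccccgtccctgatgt
A match here describes letters, not a bound site, and the absence of a match says nothing about elements farther away.

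The results follow the hormone from its activation (Hsd11b1) through its receptors to the target genes. Hsd11b1 was the only gene of the 10 that passed the test with all 12 samples, and its level was higher in MRL/lpr mice than in the rest. Its probe, on the minus strand at chr1:195048169-195048228 (mm9), read 0.759, 0.662, 0.678 and 0.616 in MRL/lpr replicates 1 to 4. The 4 Fn14ko mice read 0.350, 0.321, 0.371 and 0.307, and the 4 MRL/+ mice 0.302, 0.40, 0.323 and 0.417. All 4 MRL/lpr mice were above all 8 others, while the Fn14ko and MRL/+ values interleaved. The means were 0.679 ± 0.0596 in MRL/lpr, 0.337 ± 0.0288 in Fn14ko and 0.360 ± 0.0565 in MRL/+ (SD, n = 4 each).

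Against MRL/+, Hsd11b1 rose 1.90-fold in MRL/lpr (log2 0.92 ± 0.22 SE, limma adjusted p = 0.0293), and against Fn14ko 2.01-fold (log2 1.01 ± 0.22 SE, adjusted p = 0.0319). The exact permutation test gave p = 0.0286 for both, the smallest that 4 against 4 mice allow. Between Fn14ko and MRL/+ the log2 difference was -0.09 ± 0.22 SE (adjusted p = 0.908). Of the 6 genes with valid spots, 1 was therefore called against MRL/+, where 9.17% of all 8864 genes were called, and 1 against Fn14ko, where 3.98% were called. The other 4 genes gave no call in either comparison, against 2.46% and 6.83% of the 29608 genes in the fit with no filter. Between Fn14ko and MRL/+ limma called 0 of the 10, and 0 had an unadjusted p under 0.05, where 0.519% of the 8864 and 0.145% of the 29608 genes were called. Permutation p-values are unadjusted, and 30 were computed for the 10 genes in 3 comparisons. They treat the 2 mice of an array as independent, although mice sharing an array correlated at 0.71 in the fit of 8864 genes, so they overstate the evidence. The limma fit behind the adjusted p-values above also treats these mice as independent, so its p-values overstate the evidence too. A fit with array as a random block is given below.

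The 10 spots of the Hsd11b1 probe are repeats on the same array and show the measuring error within a sample. Over these spots the coefficient of variation was 18.1% and 21.3% in MRL/lpr replicates 1 and 2, 17.9% to 22.5% in Fn14ko and 24.7% to 38.8% in MRL/+. In MRL/lpr replicates 3 and 4 it was 59.3% and 118%, with single spots from 0.214 to 1.21 and from 0.328 to 3.60; only 6 of the 10 spots were valid in all 12 samples. Without the weak array, Hsd11b1 kept its direction, at log2 1.19 ± 0.15 SE against MRL/+ (adjusted p = 0.000666) and 0.96 ± 0.15 SE against Fn14ko (adjusted p = 0.0036).

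**Figure D2:**
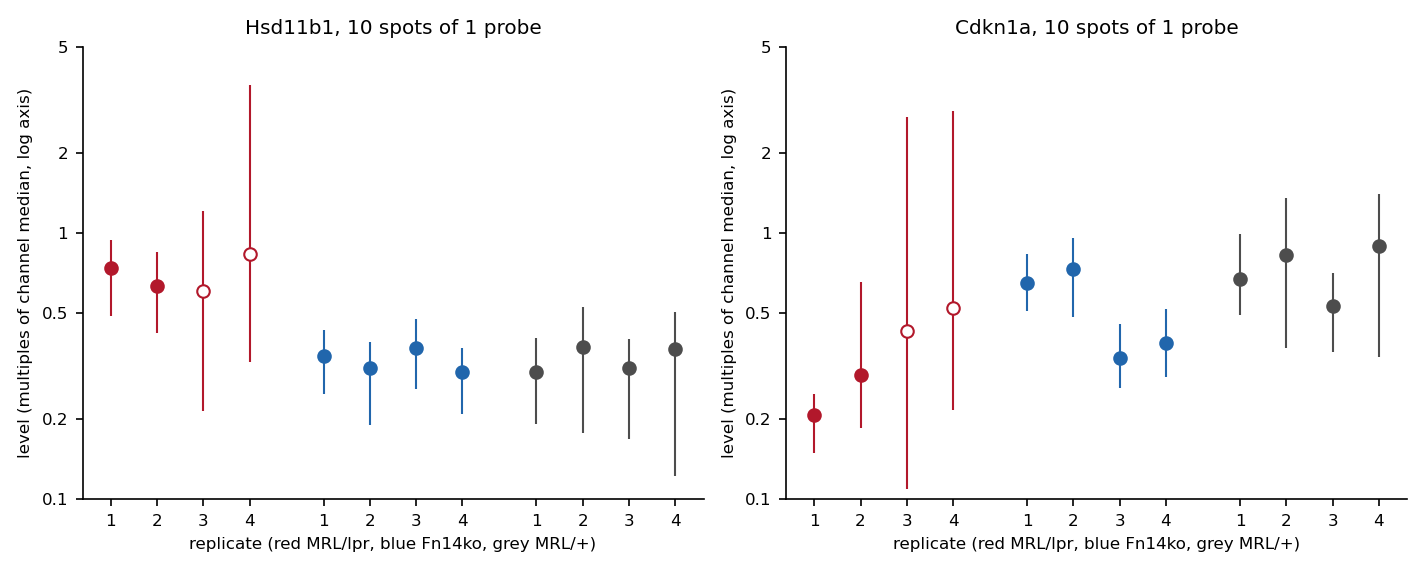
Level (multiples of channel median, log axis) of the 10-spot probes of Hsd11b1 and Cdkn1a in each mouse; points are means over 10 spots, vertical lines run from the lowest to the highest spot and open points are the weak array. For Hsd11b1 the 4 MRL/lpr means lie between 0.603 and 0.836 and the 8 others between 0.299 and 0.373.

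The Hsd11b1 call was lost when the 2 mice of an array were treated as a random block (adjusted p = 0.31 and 0.278; correlation of mice sharing an array 0.71) and after quantile normalization (0.112 and 0.161). With the replicate number as a block in place of dye the adjusted p was 0.0571 and 0.064, and normexp background correction ended the call against Fn14ko (0.0847). It was also lost, at adjusted p of 0.0522 to 0.0791, without MRL/lpr replicate 3, Fn14ko replicate 2 or 4 or any MRL/+ replicate in the comparison with MRL/+. Against Fn14ko it was lost, at 0.0537 to 0.127, without MRL/lpr replicate 3 or 4, any Fn14ko replicate or MRL/+ replicate 2, 3 or 4, with log2 values of 0.95 to 1.06 throughout. Hippocampal neuron markers, summed over 11 genes, were also highest in MRL/lpr. The sums were 11.2 to 15.1 in MRL/lpr, 6.39 to 9.49 in Fn14ko and 6.13 to 8.05 in MRL/+. Of the 11, 5 were called higher against MRL/+ and 6 against Fn14ko. The shares of all genes called were 9.17% of 8864 and 2.46% of 29608 against MRL/+, and 3.98% and 6.83% against Fn14ko. In this list Zbtb20, a transcription factor of hippocampal neurons, averaged 4.02, 0.718 and 0.559 in MRL/lpr, Fn14ko and MRL/+. The dentate gyrus marker Prox1 was well above background in 4, 2 and 2 mice. Wfs1 of the same list went the other way, at 3.38, 5.57 and 4.49, and was not called. Striatal neuron markers, summed over 9 genes, had their lowest median in MRL/lpr. The sums were 3.82 to 5.61 in MRL/lpr, 9.08 to 25.0 in Fn14ko and 5.26 to 8.81 in MRL/+, so MRL/lpr and MRL/+ overlapped. Of the 9, 1 was called lower in MRL/lpr against MRL/+ and 4 against Fn14ko. Rgs9 was instead higher in MRL/lpr (log2 3.37 against MRL/+ and 3.77 against Fn14ko), as were Drd2 and Pde10a, none of them called. Tac1 was higher against MRL/+ only (0.76, not called). Choroid plexus markers summed to 10.7 to 57.4 in MRL/lpr, 7.06 to 12.14 in Fn14ko and 8.67 to 9.76 in MRL/+ over 10 genes. The part of these markers in the Hsd11b1 difference was not tested. In whole hippocampus, more cells that express a gene and more RNA per cell cannot be told apart.

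**Figure D3:**
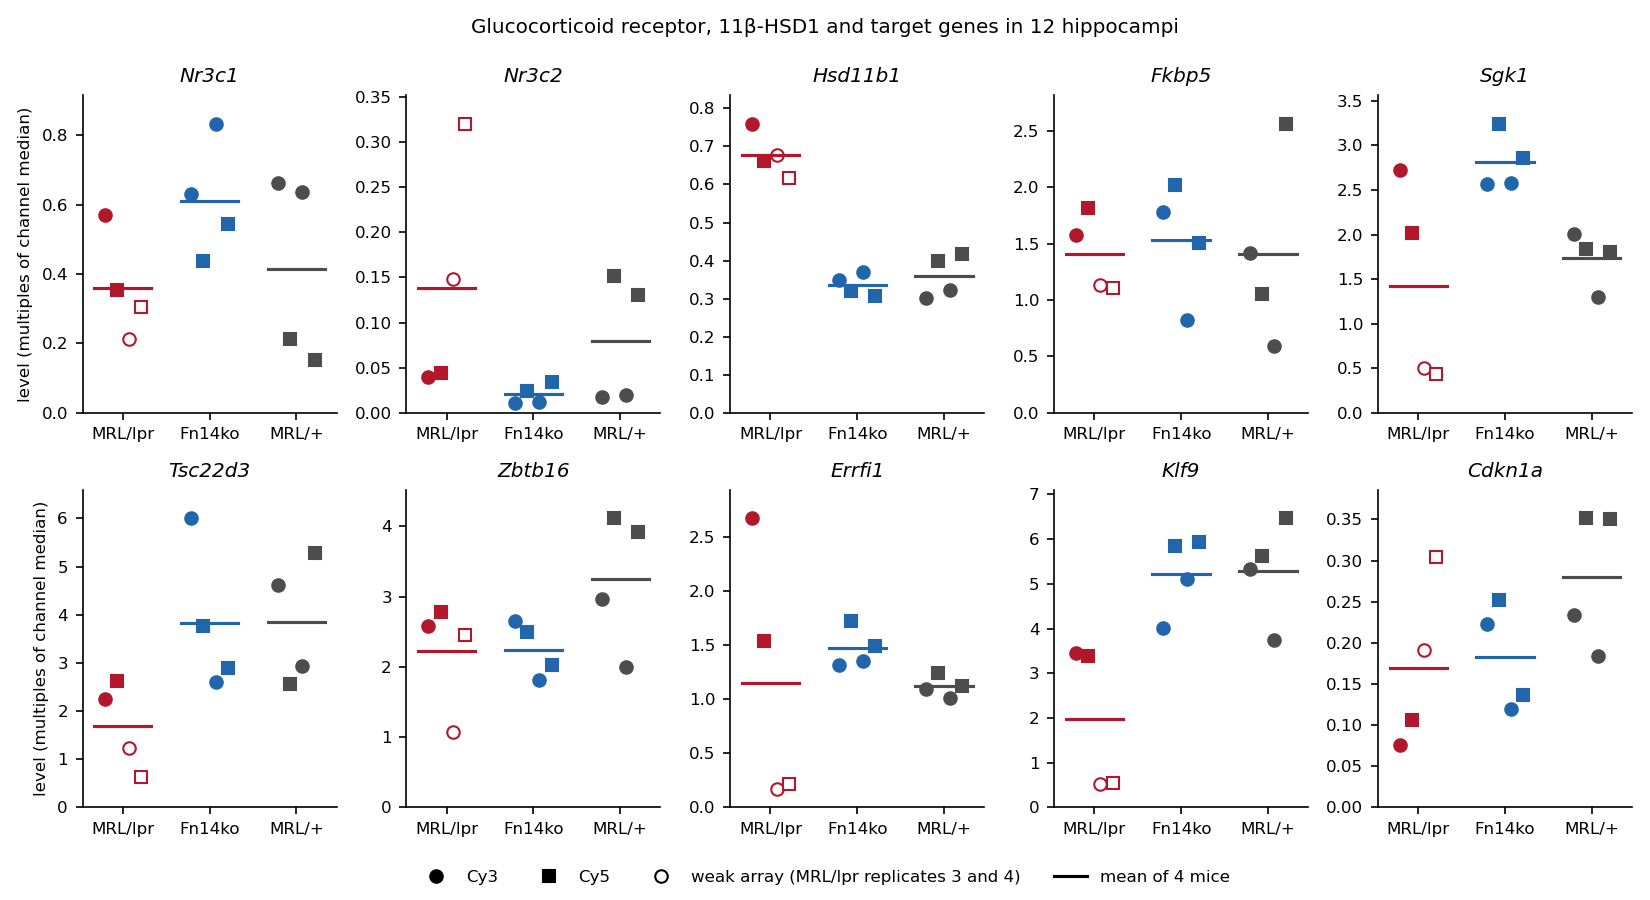
Level of the 10 genes (multiples of channel median, linear axes from 0, 1 panel per gene) in the 4 mice of each phenotype; circles are Cy3, squares Cy5, open symbols the weak array and bars the mean of 4 mice. The 4 MRL/lpr values of Hsd11b1 lie above all others, and the 2 open symbols are the lowest values for Sgk1, Tsc22d3, Errfi1 and Klf9.

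The glucocorticoid receptor gene Nr3c1 read 0.569, 0.353, 0.214 and 0.305 in MRL/lpr, 0.631, 0.436, 0.832 and 0.544 in Fn14ko and 0.663, 0.213, 0.636 and 0.152 in MRL/+. The 2 MRL/+ mice labeled with Cy5 were far below the 2 labeled with Cy3, and neither was well above background, whereas all 4 Fn14ko mice were. The log2 difference was -0.01 ± 0.39 SE against MRL/+ (adjusted p = 1) and -0.81 ± 0.39 SE against Fn14ko (adjusted p = 0.185) for MRL/lpr, and 0.80 ± 0.39 SE for Fn14ko against MRL/+ (adjusted p = 0.425). Over all genes of this unfiltered fit the median log2 difference was 0.21, 1.34 and -0.97 in these 3 comparisons, so Nr3c1 lay -0.22, -2.15 and 1.77 from that median. Between MRL/lpr and MRL/+ the log2 difference was -0.90 within Cy3 and 0.87 within Cy5. For Fn14ko against MRL/+ the values were 0.16 within Cy3 and 1.44 within Cy5. The 2 probes of Nr3c1 were far apart in brightness: the dimmer was well above background in 8 samples at 3.28 to 11.5 times background outside the weak array, the brighter reached 6.47 to 238 times there, and the brighter probe alone gave a log2 difference of 0.08 between MRL/lpr and MRL/+.

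Without the weak array, Nr3c1 was called higher in Fn14ko than in MRL/+ (log2 1.05 ± 0.32 SE, adjusted p = 0.0399), in a fit of 17936 genes that called 21.1% of all genes in that comparison. The within-dye values behind it were 0.21 for Cy3 and 1.90 for Cy5. The 2 MRL/+ mice in Cy5 also had the raised negative-control foreground, and its part in the difference was not tested. MRL/lpr replicates 1 and 2 gave 0.56 ± 0.39 SE against MRL/+ (adjusted p = 0.335) and -0.49 ± 0.39 SE against Fn14ko (adjusted p = 0.513). Leaving out MRL/lpr replicate 2 alone gave a call against Fn14ko (log2 -0.99, adjusted p = 0.0442). By the root mean square difference of centred log2 values over the 12 samples, the genes closest to Nr3c1 were Becn1 (0.24), Gpx1 (0.25) and Cadm3 (0.27), compared with a standard deviation of 0.79 for Nr3c1 itself.

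The mineralocorticoid receptor gene Nr3c2, at chr8:79766370-79766429 (mm9, plus strand), was near background throughout, at 1.80 to 8.53 times. It was well above background in 2 of 4 mice of each phenotype, which were the Cy3 mice in Fn14ko and MRL/+ and the mice of the stronger array in MRL/lpr. Levels were 0.0397, 0.0441, 0.148 and 0.320 in MRL/lpr, 0.0113, 0.0239, 0.0123 and 0.0347 in Fn14ko, and 0.0179, 0.151, 0.0203 and 0.131 in MRL/+. The 2 highest MRL/lpr values came from the weak array and the 2 highest MRL/+ values from the Cy5 channel. All 4 MRL/lpr mice lay above all 4 Fn14ko mice (log2 2.37 ± 0.78 SE, exact permutation p = 0.0286), a separation that 18.4% of genes in the unfiltered fit showed, and the limma adjusted p was 0.0841. The other differences were 0.88 ± 0.78 SE for MRL/lpr against MRL/+ (adjusted p = 0.697) and -1.49 ± 0.78 SE for Fn14ko against MRL/+ (adjusted p = 0.425). From the median of all genes in that fit, Nr3c2 lay 1.03, 0.67 and -0.53 away in these 3 comparisons. Leaving out the weak array gave 1.1, -0.14 and -1.24 in the order just given, with no call. Without MRL/lpr replicate 2 the difference from Fn14ko was called (log2 3.09, adjusted p = 0.00724).

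Fkbp5 encodes a co-chaperone that lowers the affinity of the receptor for its hormone and closes a feedback loop. Its probe (chr17:28536060-28536119, mm9, minus strand) was well above background in all 12 samples. It read 1.58, 1.82, 1.13 and 1.11 in MRL/lpr, 1.78, 2.02, 0.822 and 1.5 in Fn14ko, and 1.42, 1.06, 0.597 and 2.56 in MRL/+. The 3 ranges overlapped, and MRL/+ alone spanned the whole range of the 12 mice. The means were 1.41 ± 0.35, 1.53 ± 0.52 and 1.41 ± 0.84 (SD, n = 4 each). Log2 differences were 0.16 for MRL/lpr against MRL/+, -0.08 against Fn14ko and 0.24 for Fn14ko against MRL/+, each ± 0.39 SE, with adjusted p of 0.768 to 0.89. Among the genes closest to Fkbp5 over the 12 samples were Smim3 (root mean square difference 0.26) and Pgrmc1 (0.36), compared with a standard deviation of 0.59 for Fkbp5.

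Sgk1, the serum- and glucocorticoid-regulated kinase whose promoter is printed above, was measured at chr10:21719507-21719566 (mm9, plus strand). It read 2.72, 2.02, 0.50 and 0.438 in MRL/lpr, 2.56, 3.24, 2.58 and 2.86 in Fn14ko and 2.00, 1.84, 1.30 and 1.80 in MRL/+. The Fn14ko mice were all above the MRL/+ mice, and the MRL/lpr mice split by array, with the weak array below all 10 others. For Fn14ko against MRL/+ the log2 difference was 0.71 ± 0.53 SE (exact permutation p = 0.0286, adjusted p = 0.628), and 19.9% of the 8864 genes showed such a separation. In the other 10 samples it was 0.96 ± 0.17 SE and was called (1.94-fold, adjusted p = 0.00638), with 0.72 within Cy3 and 1.20 within Cy5. Between MRL/lpr and MRL/+ the direction turned with that array, from -0.71 ± 0.53 SE (adjusted p = 0.327) to 0.61 ± 0.21 SE without it (adjusted p = 0.0744). Against Fn14ko the difference was -1.42 with and -0.34 without it (adjusted p = 0.104 and 0.381). Sgk1 was called lower in MRL/lpr than in Fn14ko without MRL/lpr replicate 1 (log2 -1.94) or 2 (-1.77), and lower than in MRL/+ without MRL/lpr replicate 1 (-1.23).

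Tsc22d3, which encodes the glucocorticoid-induced leucine zipper, an anti-inflammatory protein, read 2.25, 2.62, 1.23 and 0.641 in MRL/lpr, 6.0, 3.77, 2.61 and 2.90 in Fn14ko and 4.61, 2.57, 2.94 and 5.27 in MRL/+. Its probe lies at chrX:137074094-137074153 (mm9, minus strand). The MRL/lpr range touched the bottom of the other ranges, so that replicate 2 overlapped with both groups. The log2 difference was -1.33 ± 0.45 SE against MRL/+ (adjusted p = 0.0754) and -1.30 ± 0.45 SE against Fn14ko (adjusted p = 0.0932), with an exact permutation p of 0.0571 for both. Over the other 10 samples it was -0.44 and -0.66 (adjusted p = 0.444 and 0.342). Both differences were called when MRL/lpr replicate 1 was left out (-1.52 and -1.49) or replicate 2 (-1.68 and -1.65). Fn14ko and MRL/+ differed by -0.02 ± 0.45 SE.

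Zbtb16, a zinc finger transcription factor that glucocorticoids induce in many tissues, was measured at chr9:48462419-48462478 (mm9, minus strand) and was well above background in all 12 samples. It read 2.59, 2.78, 1.08 and 2.45 in MRL/lpr, 2.65, 2.5, 1.81 and 2.02 in Fn14ko and 2.97, 4.11, 1.99 and 3.93 in MRL/+. The 2 highest values were the Cy5 mice of MRL/+, and all 3 ranges overlapped. Log2 differences were -0.58 for MRL/lpr against MRL/+, -0.09 against Fn14ko and -0.49 for Fn14ko against MRL/+, each ± 0.30 SE, with adjusted p of 0.18, 0.831 and 0.514. Leaving out the weak array gave -0.06, 0.18 and -0.24.

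Errfi1 encodes a feedback inhibitor of epidermal growth factor receptor signaling. Its probe (chr4:150242886-150242945, mm9, plus strand) read 2.67 and 1.54 on the stronger MRL/lpr array and 0.171 and 0.221 on the weak array, where it was not well above background. The 4 Fn14ko mice read 1.32, 1.73, 1.35 and 1.49 and the 4 MRL/+ mice 1.09, 1.25, 1.02 and 1.13. All 4 Fn14ko mice lay above all 4 MRL/+ mice (log2 0.39 ± 0.69 SE, exact permutation p = 0.0286, adjusted p = 0.699), and 10.7% of the 29608 genes had groups apart in this comparison. Errfi1 without the weak array was called higher in MRL/lpr than in MRL/+ (log2 1.02 ± 0.22 SE, 2.03-fold, adjusted p = 0.0114) and higher in Fn14ko than in MRL/+ (log2 0.64 ± 0.18 SE, 1.56-fold, adjusted p = 0.0296). With all 12 samples the first of these was -0.83 ± 0.69 SE (adjusted p = 0.651), and the direction turned when the 2 mice of the weak array were left out. Against Fn14ko the MRL/lpr difference was -1.22 with and 0.38 without it (adjusted p = 0.225 and 0.335). Errfi1 was called lower there without MRL/lpr replicate 1 (-2.02) or 2 (-1.69). From the median of all genes in the unfiltered fit, the 12-sample values of MRL/lpr lay -1.04 away against MRL/+ and -2.56 against Fn14ko. For Fn14ko against MRL/+ the distance was 1.36. Estimated array weights turned the call against MRL/+, with Errfi1 called lower in MRL/lpr than in MRL/+ (log2 -2.15, adjusted p = 3.3e-06) and than in Fn14ko (-2.54, adjusted p = 6.41e-08). The weighted fit called 16533 and 25188 of the 29608 genes in these comparisons. It weighted the weak array (0.69 and 1.54) above the other MRL/lpr array (0.135 and 0.086).

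Klf9, a Krüppel-like transcription factor that is an early target of the receptor in neurons, was measured at chr19:23240410-23240469 (mm9, plus strand). It read 3.46, 3.38, 0.519 and 0.539 in MRL/lpr, 4.02, 5.84, 5.12 and 5.95 in Fn14ko and 5.33, 5.63, 3.73 and 6.47 in MRL/+. All 4 MRL/lpr mice were below all 8 others, also on the stronger array. The log2 difference was -1.95 ± 0.60 SE against MRL/+ (adjusted p = 0.0596) and -1.94 ± 0.60 SE against Fn14ko (adjusted p = 0.0777), with an exact permutation p of 0.0286 for both. Groups were apart in either direction for 16.1% and 21.5% of the 8864 genes in these comparisons, and for 2 of the 6 genes with valid spots, Klf9 and Hsd11b1. Klf9 stood 3.75-fold and 2.44-fold over background on the weak array and 111-fold to 582-fold elsewhere. Without that array the differences were -0.44 ± 0.20 SE (adjusted p = 0.157) and -0.68 ± 0.20 SE (adjusted p = 0.0627), with the groups still apart, as they were for 34.0% and 37.0% of the 17936 genes of that fit. Both were called when MRL/lpr replicate 1 (-2.51 and -2.5) or 2 (-2.39 and -2.39) was left out. Fn14ko and MRL/+ differed by -0.01 ± 0.60 SE.

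Cdkn1a encodes a cyclin-dependent kinase inhibitor that arrests the cell cycle. Of its 3 probes, the one with 10 spots (chr17:29237377-29237436, mm9, plus strand) was 16.2 to 85.4 times background in the 10 samples outside the weak array. Another was well above background in 1 sample and the third in none. Averaged over the 3 probes, Cdkn1a read 0.0755, 0.106, 0.192 and 0.305 in MRL/lpr, 0.222, 0.251, 0.120 and 0.137 in Fn14ko and 0.234, 0.351, 0.184 and 0.350 in MRL/+. On the 10-spot probe alone, MRL/lpr replicates 1 and 2 read 0.206 and 0.293, below the 0.340 to 0.730 of the 4 Fn14ko mice and the 0.533 to 0.894 of the 4 MRL/+ mice. The weak array read 0.428 and 0.522 there, but with 1 of 10 spots well above background in each mouse and a coefficient of variation of 188% and 158% over the spots.

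With all 12 samples the Cdkn1a differences were -0.88 ± 0.43 SE against MRL/+ (adjusted p = 0.296) and -0.24 ± 0.43 SE against Fn14ko (adjusted p = 0.637). They lay -1.09 and -1.58 from the median of all genes in the unfiltered fit. Without the weak array, where the valid spots are those of the 10-spot probe, Cdkn1a was called lower in MRL/lpr in both comparisons, by log2 -1.52 ± 0.29 SE (2.87-fold, adjusted p = 0.00704) against MRL/+ and -1.27 ± 0.29 SE (2.41-fold, adjusted p = 0.0237) against Fn14ko. These rest on 2 MRL/lpr mice of 1 array, and the values within Cy3 (-1.64 and -1.34) and Cy5 (-1.40 and -1.20) had the same sign. With estimated array weights, Cdkn1a was called higher in MRL/lpr than in Fn14ko (log2 0.80, adjusted p = 0.0366) and was -0.22 against MRL/+ (adjusted p = 0.591). That fit called 25188 of the 29608 genes against Fn14ko. It gave the weak array weights of 0.69 and 1.54 and the other MRL/lpr array 0.135 and 0.086, so the weak array dominated these values. Fn14ko and MRL/+ differed by -0.63 ± 0.43 SE with all 12 samples (adjusted p = 0.425) and -0.25 ± 0.24 SE without the weak array (adjusted p = 0.445).

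**Figure D4:**
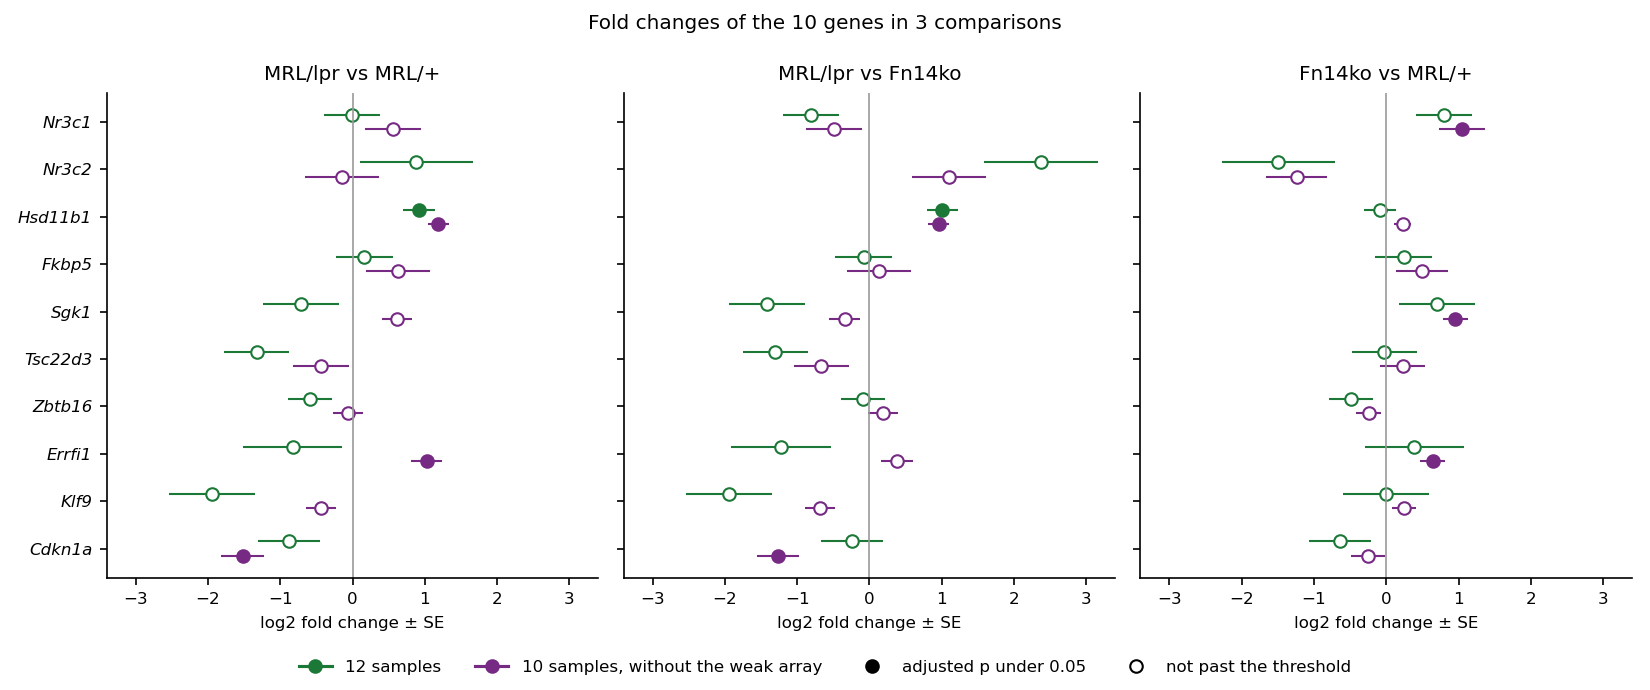
Log2 fold change ± SE of the 10 genes in the 3 comparisons, from the fit of 12 samples (green) and of the 10 samples outside the weak array (purple); filled symbols passed an adjusted p of 0.05. Hsd11b1 is filled in both fits for both MRL/lpr comparisons, while Sgk1 and Errfi1 change side between the fits in MRL/lpr vs MRL/+.

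Counted over the 10 genes, the 12-sample fits called 1, 1 and 0 in the comparisons of MRL/lpr with MRL/+, MRL/lpr with Fn14ko and Fn14ko with MRL/+. The fit without the weak array called 3, 2 and 3, against a background of 15.7%, 9.12% and 21.1% of 17936 genes. Against MRL/+ these were Hsd11b1 and Errfi1 (higher in MRL/lpr) and Cdkn1a (lower). Against Fn14ko they were Hsd11b1 (higher) and Cdkn1a (lower). Nr3c1, Sgk1 and Errfi1 were higher in Fn14ko than in MRL/+, and each pair of comparisons shares a group of mice.

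The wider pathway was read from 4 lists. When array entered as a random block, 0 genes of these and the marker lists were called in MRL/lpr against MRL/+, where the fit of 12 samples called 18, and 1 was called against Fn14ko, where that fit called 25, so that every 12-sample call against MRL/+ in the lists ended under the block. The share of all genes called with 12 samples was 9.17% of 8864 with valid spots and 2.46% of 29608 with no filter against MRL/+, and 3.98% and 6.83% against Fn14ko. Without the weak array the share was 15.7% of 17936 genes with valid spots against MRL/+, 9.12% against Fn14ko and 21.1% for Fn14ko against MRL/+. With no filter it was 11.8%, 9.23% and 13.9% of 29608 in the same order. Among 19 receptor chaperones and coregulators, 1 gene was lower in MRL/lpr than in MRL/+ with all 12 samples, the corepressor Ncor1 (log2 -1.20 ± 0.26 SE, adjusted p = 0.0219), and 0 were called in the other comparisons, where 4 each had an unadjusted p under 0.05. Ncor1 was not called without the weak array, where the coactivator Ppargc1a was lower against MRL/+ (-0.64) and the co-chaperone Bag1 lower against Fn14ko (-0.69). With all 12 samples Ppargc1a was 0.30 and Bag1 -0.89 in these comparisons, neither called. The median log2 difference of the list was -0.40, -0.11 and -0.18 in the 3 comparisons, and without the weak array -0.0019, 0.0009 and 0.068.

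Among 16 genes of hormone supply and the hypothalamic-pituitary-adrenal axis, only 2 had valid spots in all 12 samples, and Hsd11b2, which inactivates corticosterone, and Cyp11b1 were well above background in none. Crhr1, the main brain receptor of corticotropin-releasing hormone, averaged 0.355 in MRL/lpr, 0.915 in Fn14ko and 1.13 in MRL/+. It was lower in MRL/lpr than in MRL/+ (log2 -1.67 ± 0.26 SE, adjusted p = 0.00488) and than in Fn14ko (-1.32 ± 0.26 SE, adjusted p = 0.0154), and also without the weak array (-1.41 and -1.31), but both 12-sample calls ended with array as a random block. Crhbp, which binds that hormone outside cells, was lower against MRL/+ (-1.0 ± 0.21 SE, adjusted p = 0.0215; -0.65 without the weak array). Crh itself was lower against Fn14ko (-1.22 ± 0.34 SE, adjusted p = 0.0491; -1.61 without the weak array), and was well above background in 2, 4 and 2 mice of MRL/lpr, Fn14ko and MRL/+. Mc2r, the adrenocorticotropic hormone receptor, was called higher in MRL/lpr than in Fn14ko (log2 3.02 ± 0.83 SE, adjusted p = 0.0453). The median over all genes of that unfiltered fit was 1.34. Only 2 MRL/lpr mice had Mc2r well above background, with no mouse of the other phenotypes, and its Fn14ko levels of 0.01 to 0.012 lay at the floor, so the size of the difference is uncertain. It was also called without the weak array (adjusted p = 0.0176). In all, 2 of the 16 were lower against MRL/+, and 2 lower and 1 higher against Fn14ko. Without the weak array 3 were lower against MRL/+, and 4 lower and 1 higher against Fn14ko, beside 15.7% and 9.12% of 17936 genes. Nr5a1 led these (-1.95 and -1.87), but was -0.50 and -0.17 and not called with all 12 samples.

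Among 30 other genes that glucocorticoids induce, 3 were called against MRL/+, 2 of them among the 18 with valid spots in all 12 samples, beside 9.17% of all 8864 genes with valid spots. All 3 were lower in MRL/lpr: Mertk, a phagocytic receptor (log2 -1.40 ± 0.32 SE, adjusted p = 0.0358), Arl4d (-1.48 ± 0.38 SE, 0.0372) and the G protein regulator Rgs2 (-0.94 ± 0.24 SE, 0.0388). Against Fn14ko, Mertk was lower (-1.46 ± 0.32 SE, adjusted p = 0.0201) and the phosphatase Dusp1 higher (2.68 ± 0.56 SE, adjusted p = 0.0274; 1.44 without the weak array). The median log2 difference of the 30 genes was -0.19 against MRL/+, -0.23 against Fn14ko and 0.09 for Fn14ko against MRL/+; without the weak array it was 0.23, -0.11 and 0.34. In the last comparison 0 of the 30 were called with 12 samples, with 3 at an unadjusted p under 0.05. There 4 were higher and 2 lower without the weak array, in a fit that called 21.1% of all 17936 genes. Against MRL/+ without the weak array Bcl6 (1.07) and Cebpd (1.32) were higher and Rgs2 (-0.54) lower in MRL/lpr, and Bcl6 was also higher against Fn14ko (0.76). With all 12 samples Bcl6 was -0.08 and Cebpd -0.04 against MRL/+, and Bcl6 was -0.14 against Fn14ko, none of them called. The list therefore held calls in both directions, and 1 of its 3 calls against MRL/+, Rgs2, was made with and without that array. Of 15 inflammatory genes that glucocorticoids repress, 2 had valid spots in all 12 samples, and the adhesion molecule Vcam1 was higher against MRL/+ (1.24 ± 0.30 SE, adjusted p = 0.0305; 0.98 without the weak array). Without the weak array the interferon-regulated factor Irf1 (1.23) and the chemokine Ccl5 (1.96) were higher as well. That made 3 of the 15, beside 15.7% of 17936 genes called. Vcam1 (0.92) and Irf1 (0.78) were also higher in Fn14ko than in MRL/+ without that array, beside 21.1%. Between MRL/lpr and Fn14ko 0 of the 15 were called, with 5 at an unadjusted p under 0.05 with 12 samples and 1 without the weak array.

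Markers of other cell types were called as follows in MRL/lpr against MRL/+ and against Fn14ko with all 12 samples. The shares of all genes called against MRL/+ were 9.17% of 8864 with valid spots and 2.46% of 29608 with no filter. Against Fn14ko they were 3.98% and 6.83%, and the median log2 difference of the unfiltered fit was 1.34 there. Of 11 oligodendrocyte markers, Mog alone was called, higher against MRL/+ (log2 1.45). Of 10 endothelial markers, Cdh5 alone was higher against Fn14ko, in the unfiltered fit, with 2 of 4 mice well above background in both. Of 8 astrocyte markers, Gfap was higher in both comparisons (2.26 and 1.39), and Fgfr3 and S100b were lower against Fn14ko. Of 10 microglia and macrophage markers, P2ry12 was lower in both (-1.02 and -1.07) and Cx3cr1 lower against MRL/+. Of 10 choroid plexus markers, Ttr was higher against MRL/+ and 5 were higher against Fn14ko, 1 of them with valid spots in all 12 samples. Enpp2 of that list was lower in both (-0.81 and -0.72), not called. Of 8 hypothalamic and 5 erythroid markers 0 were called, with 1 hypothalamic marker at an unadjusted p under 0.05 in each comparison and 1 and 2 erythroid markers. Without the weak array 4 and 5 of the 5 erythroid markers were higher, beside 15.7% and 9.12% of 17936 genes called. Between Fn14ko and MRL/+ 0 of the 82 markers were called with 12 samples, with 17 at an unadjusted p under 0.05. Without the weak array 14 of the 82 were higher and 6 lower in Fn14ko, beside 21.1% of 17936 genes called. Of the 9 striatal markers, 5 were among those higher.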

How the data were processed

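Total RNA of 12 hippocampi was hybridized to 6 Agilent arrays and scanned. The authors deposited Feature Extraction output (12.1.0.3, mm9 probe positions) with foreground and background intensity per spot, not normalized. Each net intensity (mean foreground minus median local background) was divided by its channel's median over 10877 spots valid in all 12 samples, with a foreground of at least 2 times background and no outlier flag. Spots, then probes, of a gene were averaged before log2. Where spots were not valid in all samples, all spots were used, with a floor of 1% of the channel median.

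The limma trend fit (3.58.1, R 4.3.3, statmod 1.5.0) used all 12 samples with phenotype and dye, and Benjamini-Hochberg adjustment at 0.05; single genes were also compared by two-sided exact permutation (scipy 1.17.1, Python 3.11.15). On simulated data for MRL/lpr against MRL/+ (8864 genes), 5% of log2 changes of 1 and 49% of changes of 2 were recovered, and 3.57% of calls were false. The simulation drew each mouse independently, with 1 spread per gene for all phenotypes. It held neither the correlation of mice sharing an array (0.71) nor the weak array, so these shares need not hold for the data. The mice were separate animals, and the 6 arrays limit the precision. From each list up to 3 called genes per comparison were named, by lowest adjusted p, with others chosen after their values were seen; some genes that this rule names are not reported here. The 10 genes, the lists and the tests were chosen with earlier results of these data known. Alternatives were background correction, normalization, filter, dye, blocks, array weights, probe choice and left-out samples.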

Additional observations from a re-analysis of the deposited data

How the results depend on the processing

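The 10 genes gave 672 alternative values in 3 comparisons, of which 567 kept direction and side of the threshold, 23 lost a call, 32 gained one and 50 turned direction; no cause was tested. Genes called among the 10 in MRL/lpr vs MRL/+ (1 as reported) were 2 with normexp, 0 with quantile normalization, 0 with array as a random block, 0 with the replicate block, 3 without the weak array, 3 with estimated array weights, and 3 unadjusted or 0 adjusted by the methods' t-test, with 0 to 4 when samples were left out singly. In MRL/lpr vs Fn14ko (1 as reported) they were 2 with Agilent's processed signal, 0 with normexp, 0 with quantile normalization, 0 with either block, 2 without the weak array, 5 with weights, and 2 or 0 by the methods' t-test, with 0 to 7 when samples were left out singly (5 without MRL/lpr replicate 1 and 7 without replicate 2). In Fn14ko vs MRL/+ (0 as reported) they were 3 without the weak array, 4 with weights and 2 by the unadjusted t-test, with 0 when samples were left out singly.

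Hsd11b1 stayed higher in MRL/lpr in every alternative run. Against MRL/+ it was 0.65 with quantile normalization and 0.92 with the random array block and with the replicate block, none called, and 0.83 to 1.01 with samples left out. Against Fn14ko it was 0.69 with normexp, 0.61 with quantile normalization and 1.01 with both blocks, none called, and 0.95 to 1.06 with samples left out. Replicate numbers did not pair the mice (correlation of deviations -0.40 to 0.50 over 12 pairs, own number best in 3); the replicate block moved the genes called among 8864 from 813, 353 and 46 to 505, 179 and 0.

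Directions turned as follows. In MRL/lpr vs MRL/+, Nr3c1 was 0.064 with processed signal, 0.56 without the weak array, 0.077 with the brightest probe and 0.025 with a floor of 10%; Nr3c2 was -0.14 without the weak array; Sgk1 was 0.61 without it and 0.49 with weights; Zbtb16 was 0.15 and Errfi1 0.0030 with processed signal, and Errfi1 was 1.02 without the weak array. In MRL/lpr vs Fn14ko, without the weak array Fkbp5 was 0.13, Zbtb16 0.18 and Errfi1 0.38, with weights Fkbp5 was 0.33, Zbtb16 0.42 and Cdkn1a 0.80 (called, adjusted p = 0.0366), and with processed signal Zbtb16 was 0.61. In Fn14ko vs MRL/+, processed signal gave 0.45 for Hsd11b1, 0.19 for Tsc22d3 and 0.091 for Klf9; quantile normalization gave 0.043, 0.0093 and 0.0185, and leaving out the weak array 0.23, 0.23 and 0.25, for the same genes in this order. Hsd11b1 was 0.070 with normexp, Klf9 0.037 with weights and Cdkn1a 0.28 with the channel median over all probe spots. With samples left out singly, Nr3c1 ranged from -0.30 to 0.39 in MRL/lpr vs MRL/+, Fkbp5 from -0.14 to 0.47, from -0.29 to 0.13 and from -0.061 to 0.55 in the 3 comparisons, Zbtb16 from -0.29 to 0.18 and Cdkn1a from -0.54 to 0.030 in MRL/lpr vs Fn14ko, and Tsc22d3 from -0.26 to 0.21 and Klf9 from -0.13 to 0.079 in Fn14ko vs MRL/+.

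Over the lists, 18, 25 and 0 genes were called. In MRL/lpr vs MRL/+ there were 10 with no filter, 36 with processed signal, 7 with quantile normalization, 0 with the random block, 34 without the weak array and 66 with weights, and 3 to 56 with samples left out. In MRL/lpr vs Fn14ko there were 11 with normexp, 7 with quantile normalization, 1 with the random block, 79 with weights, 9 over genes valid in all 12 samples (an alternative chosen after seeing the data), and 2 to 82 with samples left out. In Fn14ko vs MRL/+ there were 30 without the weak array, 69 with weights and 0 to 2 with samples left out. Among all 8864 genes the random block called 7, 4 and 0, processed signal 1197, 663 and 52, normexp 549, 157 and 17, quantile normalization 443, 138 and 0, weights 1450, 901 and 3414, and omission of dye 748, 346 and 19. Without the weak array 2818, 1636 and 3785 of 17936 genes were called. In the fit of all 29608 genes, which called 728, 2022 and 43, the weights called 16533, 25188 and 21054. They put the weak array (0.69 and 1.54) above the other MRL/lpr array (0.135 and 0.086). Signal over background on the weak array limits Nr3c1, Nr3c2, Errfi1 and Cdkn1a, and both arrays of each phenotype shared a slide.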
